A study of Mus musculus with 12 samples.

Results

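Surfactant and other lung epithelial genes were examined in 12 cultures of mouse embryonic fibroblasts, where 1 of them, Sftpc, gave a high signal in a single culture. The genes were 10 in number: Sftpc, Sftpb, Sftpa1, Sftpd, Nkx2-1, Lamp3, Scgb1a1, Epcam, Cdh1 and Krt8. They were chosen by the measured Sftpc signal in that culture, and for each the probe set annotated with its symbol alone was taken. Each of the 10 had 1 such probe set among the 28853 on the array, of which 21789 carried 1 gene symbol and stood for 19938 genes.

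The cultures came from male C57BL/6J embryos of E12.5-14.5 and were harvested at passage 5. The 4 groups held 3 cultures each: mTERT KO, lacking the gene of the telomerase reverse transcriptase, its wild type mTERT WT, mTR KO, lacking the telomerase RNA, and its wild type mTR WT. Knockouts were of the first generation (G1), and knockout and wild type within a set were littermates according to the design text. No treatment was applied. The alleles are named in the labels only as KO or WT. Each culture was a bulk sample hybridised to 1 Affymetrix Mouse Gene 1.0 ST array, so fewer cells of a type and less RNA per cell cannot be told apart.

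Pulmonary surfactant is made by alveolar type 2 cells of the lung. Sftpb and Sftpc encode the small hydrophobic surfactant proteins that spread lipid at the air-liquid interface, whereas Sftpa1 and Sftpd encode collectins, secreted lectins of innate defence. Nkx2-1 encodes the homeodomain factor needed for lung and thyroid development, Lamp3 a membrane protein of lamellar bodies, Scgb1a1 the secretoglobin of club cells, and Epcam, Cdh1 and Krt8 an adhesion molecule, E-cadherin and a keratin found in epithelia in general. In the embryonic lung Sftpc marks the distal epithelium before birth.

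The region just upstream of the start site is shown for 4 genes: Sftpb, Slc34a2 and Cldn18, which were above background in the same culture as Sftpc and in no other, and Sftpa1, a surfactant gene above background in all 12. For Sftpb and Sftpa1 this depended on the background level chosen, as given below. RefSeq sequences of build GRCm38.p6 were available for 6 of the 10 genes and for Slc34a2 and Cldn18. Slc34a2 encodes the sodium-phosphate cotransporter of alveolar type 2 cells and Cldn18 a claudin of alveolar epithelium. The 250 bases before the start are given 5′ to 3′ in the direction of the gene, and for Cldn18 the upstream of 2 annotated starts was used. Capitals mark CTCAAG, the core bound by NKX2-1, and TGTTTGC, a forkhead-type motif, on either strand (CTTGAG and GCAAACA on the other strand).

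Sftpb, chr6:72304360-72304609, plus strand: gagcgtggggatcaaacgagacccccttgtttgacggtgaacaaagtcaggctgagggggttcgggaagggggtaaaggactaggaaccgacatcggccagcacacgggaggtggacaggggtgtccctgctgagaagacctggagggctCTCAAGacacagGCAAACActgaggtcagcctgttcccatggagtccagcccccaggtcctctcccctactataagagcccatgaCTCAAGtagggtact

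Sftpa1, chr14:41131538-41131787, plus strand: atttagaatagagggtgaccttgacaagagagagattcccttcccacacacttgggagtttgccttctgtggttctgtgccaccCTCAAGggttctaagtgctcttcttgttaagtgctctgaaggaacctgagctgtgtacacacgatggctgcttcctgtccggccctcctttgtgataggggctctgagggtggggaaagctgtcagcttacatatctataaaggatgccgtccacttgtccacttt

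Slc34a2, chr5:53049103-53049352, plus strand: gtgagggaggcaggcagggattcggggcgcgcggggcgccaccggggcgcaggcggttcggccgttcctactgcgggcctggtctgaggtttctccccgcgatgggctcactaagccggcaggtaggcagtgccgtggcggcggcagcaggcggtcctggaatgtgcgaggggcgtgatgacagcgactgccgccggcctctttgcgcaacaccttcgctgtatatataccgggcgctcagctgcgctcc

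Cldn18, chr9:99717268-99717517, minus strand: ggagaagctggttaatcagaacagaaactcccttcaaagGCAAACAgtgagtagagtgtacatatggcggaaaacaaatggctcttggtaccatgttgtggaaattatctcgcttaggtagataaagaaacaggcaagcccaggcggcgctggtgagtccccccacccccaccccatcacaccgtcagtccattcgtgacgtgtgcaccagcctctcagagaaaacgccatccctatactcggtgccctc

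Sftpb held CTCAAG starting 100 and 15 bases before the start and TGTTTGC, on the reverse strand, 88 bases before it. Sftpa1 held 1 CTCAAG, 166 bases before the start. Cldn18 held TGTTTGC on the reverse strand 211 bases before the start, and Slc34a2 held neither motif in this window. Nor did the windows of Lamp3 and Epcam, which were highest in the same culture but below background, or those of Nkx2-1 and Krt8. Of all 32851 RefSeq windows of this length 13.3% held CTCAAG and 4.30% held TGTTTGC on either strand, so a match alone is common. These matches describe letters in the window only.

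The Sftpc signal was 9.17 (log2) in mTR WT 1. It was 4.07 in mTR WT 2 and 4.30 in mTR WT 3. The mTR KO cultures gave 4.19, 4.09 and 4.33, the mTERT WT cultures 4.44, 4.29 and 4.43, and the mTERT KO cultures 4.43, 4.17 and 4.37. One mTR WT culture was thus far above the remaining 11, which lay within 0.38 of each other and overlapped between all groups.

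Background was set by the probe sets of odorant receptor genes, which are mostly silent outside the olfactory epithelium: the 95th percentile of 1035 of them lay between 4.93 and 5.09 across the arrays. Sftpc stood 4.21 above it in mTR WT 1 and below it in the other 11 cultures. The gap to the next highest culture, called the excess below, was 4.73. Since that next culture lay below background, the difference was also taken against the highest background of the other 11 arrays, 4.08 lower (log2), which makes the signal at least 17.0-fold higher on the deposited scale. The mTR WT mean was 5.85 ± 2.88 (SD, n = 3) and 4.18 without mTR WT 1, beside 4.20 ± 0.12 in mTR KO, 4.39 ± 0.08 in mTERT WT and 4.32 ± 0.14 in mTERT KO. Since Sftpc was chosen for this pattern, these values are a description without a test.

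**Figure D1:**
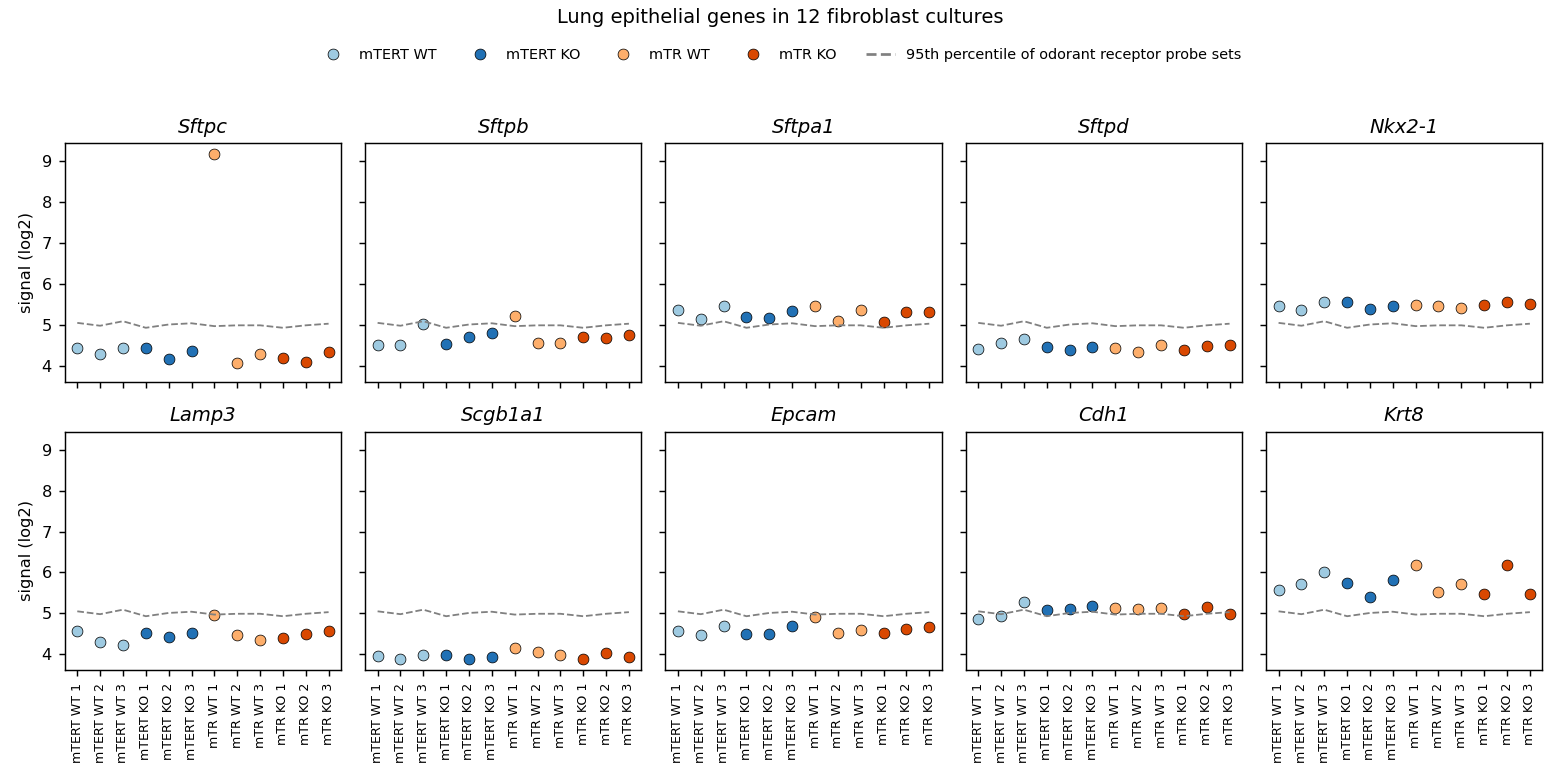
Signal (log2) of each of the 10 genes in each of the 12 cultures, 1 point per culture, coloured by group, with the background level of each array as a dashed line. Sftpc stands at 9.17 in mTR WT 1 and between 4.07 and 4.44 elsewhere; of the other genes, Krt8 spans the widest range, 0.78.

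Among the other 9 genes, 5 were highest in mTR WT 1, where 7.3% of all probe sets were highest; an excess of 0.5 or more, found for 0.128% of all probe sets, was reached by 0 of the 9. Sftpb, the second hydrophobic surfactant protein gene, read 5.23 there, 4.55 and 4.57 in the other mTR WT cultures, and 4.71, 4.67 and 4.76 in mTR KO. The mTERT WT values were 4.51, 4.51 and 5.02, and those of mTERT KO were 4.53, 4.70 and 4.80. Sftpb was above background in mTR WT 1 alone, by an excess of 0.21 over mTERT WT 3.

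Lamp3, of lamellar bodies, read 4.96 in mTR WT 1, 4.46 and 4.36 in the other mTR WT cultures, and between 4.22 and 4.58 in the other 3 groups. Its excess of 0.38 was the largest among the 9, although the signal stayed below background in all 12 cultures. Epcam read 4.90 in mTR WT 1 and between 4.48 and 4.70 elsewhere, an excess of 0.20, likewise below background throughout. Scgb1a1 read 4.16 in mTR WT 1 against 3.88 to 4.06, also below background in all 12 cultures.

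Sftpa1, a collectin of surfactant, read 5.46 in both mTR WT 1 and mTERT WT 3, where it was highest in the former by less than the second decimal, and ranged down to 5.06 with every culture above background. Its mTR KO values were 5.06, 5.31 and 5.31 and its mTERT KO values 5.20, 5.17 and 5.34. Krt8, a keratin of simple epithelia, gave mTR WT signals of 6.17, 5.51 and 5.71 and mTR KO signals of 5.47, 6.17 and 5.48. Its mTERT WT signals were 5.56, 5.72 and 6.00 and its mTERT KO signals 5.74, 5.39 and 5.81. Krt8 was highest in mTR KO 2, with mTR WT 1 next to it, and Sftpc read 4.09 in mTR KO 2.

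Nkx2-1 read 5.49 in mTR WT 1, the fifth highest of the 12, within a range of 0.21 from 5.37 to 5.57; the other mTR WT cultures gave 5.46 and 5.42, and the mTR KO cultures 5.48, 5.57 and 5.51. Cdh1 read 5.13 there within 4.86 to 5.27, and Sftpd 4.44 within 4.33 to 4.66, below background throughout. These genes did not separate the Sftpc-high culture from the others.

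In all, 3 of the 10 genes (Sftpa1, Nkx2-1 and Krt8) were above background in 12 cultures, where 53.4% of all probe sets were. At the 99th percentile of the odorant receptor probe sets, these 3 exceeded the level in 1, 9 and 10 cultures. Another 4 (Sftpd, Scgb1a1, Epcam and Lamp3) were above background in no culture, as were 33.2% of all probe sets. Sftpc, Sftpb and Cdh1 were above it in some. Sftpc and Sftpb were above background in mTR WT 1 alone, which held for 87 of all probe sets, 0.302%. For Sftpb this depended on the percentile: at the 90th it was above the level in 2 cultures and at the 99th in 0. Sftpc was above the level in 1 culture at both. Because Nkx2-1, Sftpd and Cdh1 were not highest in mTR WT 1 and Scgb1a1 stayed below background there, the genes are named here as a list and not as a cell type.

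Across all probe sets, 3 exceeded every other culture by 1 or more in mTR WT 1 (0.0104%): Sftpc, Thbs4, which encodes a thrombospondin of the extracellular matrix, and Slc34a2. Without mTR WT 3 the count in mTR WT 1 was 9. The same count was 8 in mTR KO 1, 2 in mTERT WT 2 and in mTR WT 2, 1 in mTERT KO 2 and in mTERT KO 3, and 0 in the remaining 6 cultures. The largest excess elsewhere was 2.11, for Ms4a4a in mTR KO 1, so a gene standing apart in 1 culture was not limited to mTR WT 1, but no other excess reached that of Sftpc.

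Slc34a2 read 5.38 in mTR WT 1, 4.01 and 4.09 in the other mTR WT cultures, and at most 4.28 in the other 3 groups, an excess of 1.10. Cldn18 read 5.31 in mTR WT 1, 4.66 and 4.68 in the other mTR WT cultures, and between 4.45 and 4.65 in the other groups, an excess of 0.64. Both were above background in mTR WT 1 alone. Of the motifs searched in the promoter windows printed above, none was found in both genes.

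Of 15 alveolar type 2 genes other than Sftpc, 8 were highest in mTR WT 1 against 7.3% of all probe sets, with a median of 0.15 above the median of the other 11 cultures against 0.01 for all probe sets. After Slc34a2 and Cldn18 came Lamp3, Muc1 with an excess of 0.27, Sftpb, Hc with 0.17 and Napsa with 0.06; Muc1 encodes an epithelial mucin and Napsa the aspartic protease that processes surfactant proteins. Of the 8 genes 5 were above background in mTR WT 1, while Lamp3, Hc and Napsa were below it in all 12 cultures, so that their rank is a rank among background-level signals. Ctsh, Lpcat1 and Etv5, the members of the list with the highest mean signal, read 8.42, 7.16 and 7.10 in mTR WT 1 and were not highest there. Abca3, the lipid transporter of lamellar bodies, read 6.97 in mTR WT 1 within 6.74 to 7.25.

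The alveolar type 1 list had a median of 0.15, as for type 2. Against 7.3% of all probe sets, 4 of its 8 genes were highest in mTR WT 1. Besides Cldn18 these were Ager, the receptor for advanced glycation end products, at 5.66 against at most 5.22, Clic5 at 4.85 against at most 4.70 but below background, and Aqp5, a water channel, with an excess of 0.01. Pdpn and Akap5 read 9.17 within 8.81 to 10.17 and 6.41 within 5.17 to 6.88. The list's members were thus mixed, as in the type 2 list.

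Of 31 pan-epithelial genes 4 were highest in mTR WT 1: Krt7 at 5.90 against at most 5.60, Epcam, Krt18 at 5.92 against at most 5.80, and Ovol2 with an excess of 0.02; Epcam was below background. The brightest genes of the list, Jup, Krt19 and Spint2, read 8.76, 6.63 and 6.60 in mTR WT 1 and were not highest there. The counts were 1 of 10 club and secretory genes, 2 of 10 ciliated genes and 1 of 7 basal and squamous genes. The share of all probe sets highest in mTR WT 1, beside each of these counts, was 7.3%. Of 19 regulators of lung epithelium 4 were highest there against the same 7.3%, led by Foxp2 at 5.98 against at most 5.69. Among these 4, Sox9 and Ehf had excesses of 0.0 and 0.01, and Ehf was below background. The brightest of the 19 were Foxp1, at 8.94 within 8.65 to 9.02, Id2, at 8.07 within 7.79 to 8.99, and Foxp4, at 7.65 against at most 7.60. Foxa2, a forkhead factor of foregut endoderm, read 4.98 within 4.78 to 5.00.

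Genes of lung mesenchyme were described too, since the cultures were of fibroblasts. Of 12, 4 were above background in all 12 cultures and 3 in none. The list median was 0.32 above the median of the other 11 cultures, against 0.01 for all probe sets. In mTR WT 1, 4 of the 12 were highest, against 7.3% of all probe sets. There 11 of the 12 lay above the median of the other 11 cultures, as did 15435 of all 28853 probe sets. Foxf1, a forkhead factor of lung mesenchyme, read 8.05 against at most 7.76, Bmp4 9.25 against at most 8.98, Tbx5 6.27 against at most 6.09 and Tbx4 6.15 against at most 6.04. Tbx4 was close to this level in mTR WT 3 (6.04), and Bmp4 varied between 6.71 and 8.98 across the other cultures. Hoxa5, a homeobox gene of lung mesenchyme, read 6.87 within 5.62 to 7.61. In lists of other tissues the count of genes highest in mTR WT 1 was 1 of 8 for mesothelium (Nkain4) and 1 of 13 for heart. It was 0 of 10 for liver, 1 of 12 for gut and pancreas and 1 of 6 for thyroid (Tg, at 5.49 against at most 5.48). The mesothelial list median was 0.14, beside 0.15 for the type 2 list.

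**Figure D2:**
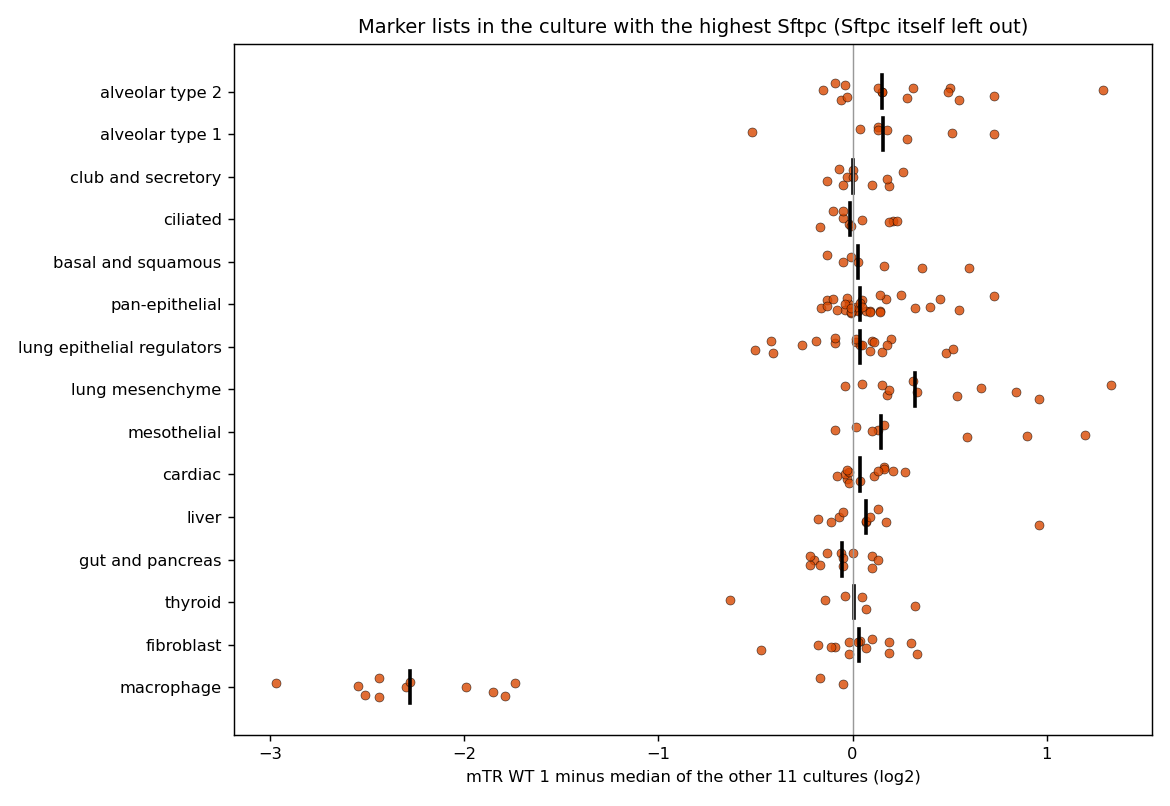
Difference (log2) between mTR WT 1 and the median of the other 11 cultures for each gene of 15 marker lists, 1 point per gene, with the list median as a bar; Sftpc is left out and the vertical scatter within a list carries no meaning. The alveolar type 2 and type 1 medians are each 0.15, the mesothelial median 0.14, the lung mesenchyme median 0.32 and the macrophage median lies 2.28 below 0.

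Markers of another cell type moved with the same culture. Of 13 macrophage genes 11 were lowest in mTR WT 1, where 6.78% of all probe sets were lowest. The list lay a median of 2.28 below the median of the other 11 cultures, against 0.01 above it for all probe sets. The mean signal of the list was 6.52 in mTR WT 1 and ran from 7.26 to 9.10 in the others, from 7.96 to 8.36 in the other mTR WT cultures. The brightest of the list, Lyz2, which encodes lysozyme, C1qb, a complement component, and Cd68, a lysosomal protein, read 10.57 against at least 11.31, 7.31 against at least 8.22 and 7.33 against at least 8.13. C1qa, another complement component, read 6.61 in mTR WT 1 against at least 7.74, and Mrc1, the mannose receptor, 5.89 against at least 7.14. In mTR WT 1 12 of the 13 were still above background, Chil3 being the exception. The part of this difference in the Sftpc signal was not tested.

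Over all probe sets, 13 lay at least 1 below every other culture in mTR WT 1, led by Ccl6 at 5.24 against at least 6.91 and Clec4n at 5.89 against at least 7.44. The same count was 3 in mTR KO 1, 1 in mTR WT 3 and 0 in the other 9 cultures. All 14 fibroblast genes were above background in all 12 cultures, and the list mean was 10.66 in mTR WT 1 within 10.20 to 11.12. Levels differed between the genes. Col1a1, a fibrillar collagen chain, read 13.05 in mTR WT 1 within 12.95 to 13.17. Lum read 7.23 there within 5.62 to 10.09, Pdgfra 8.05 within 6.21 to 9.98 and Fap 5.93 within 5.56 to 6.97.

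The genes most like Sftpc across the 12 cultures were ranked by Pearson r among 1721 single-gene probe sets that ranged by at least 1 and rose above background. The 10 highest ran from 0.766 to 0.975 and were Slc34a2, Tph1, Thbs4, Fgf18, Hapln1, Agtr1a, Adgrl4, Meox2, Susd2 and Anxa8. Tph1 encodes a tryptophan hydroxylase of serotonin synthesis, Fgf18 a fibroblast growth factor, Hapln1 a hyaluronan link protein, Agtr1a an angiotensin II receptor and Meox2 a homeodomain factor. All 10 were highest in mTR WT 1, and r over the other 11 cultures ran from -0.314 to 0.441, so the likeness rested on that culture. None of the 10 was among the top 10 by Spearman rho or by r over the other 11 cultures.

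The remaining excesses of the 12 probe sets that stood furthest above the other cultures in mTR WT 1 were 1.31 for Thbs4 (7.07 against at most 5.75), 0.97 for Agtr1a, 0.91 for Fgf18, 0.89 for Palmd, 0.85 for Anxa8, 0.84 for Mustn1, 0.79 and 0.78 for 2 probe sets of Pappa2, a protease of insulin-like growth factor binding proteins, 0.73 for Tph1 and 0.72 for Hapln1. For Anxa8, an annexin, mTR WT 3 came next at 7.82 against 8.67, and for Pappa2 it read 6.85 against 7.64. The same culture came next for Thbs4 (5.75), Fgf18 (6.72), Agtr1a (6.39) and Mustn1 (6.59). For Palmd, Tph1 and Hapln1 the next cultures were mTR KO 3, mTERT WT 3 and mTERT KO 3. Anxa8 and Pappa2 therefore varied in several cultures, as did Palmd (5.51 to 7.22 in the other 11). Sftpc, Slc34a2, Tph1 (4.19 to 4.63) and Hapln1 (3.92 to 4.44) stayed below background in the other 11.

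**Figure D3:**
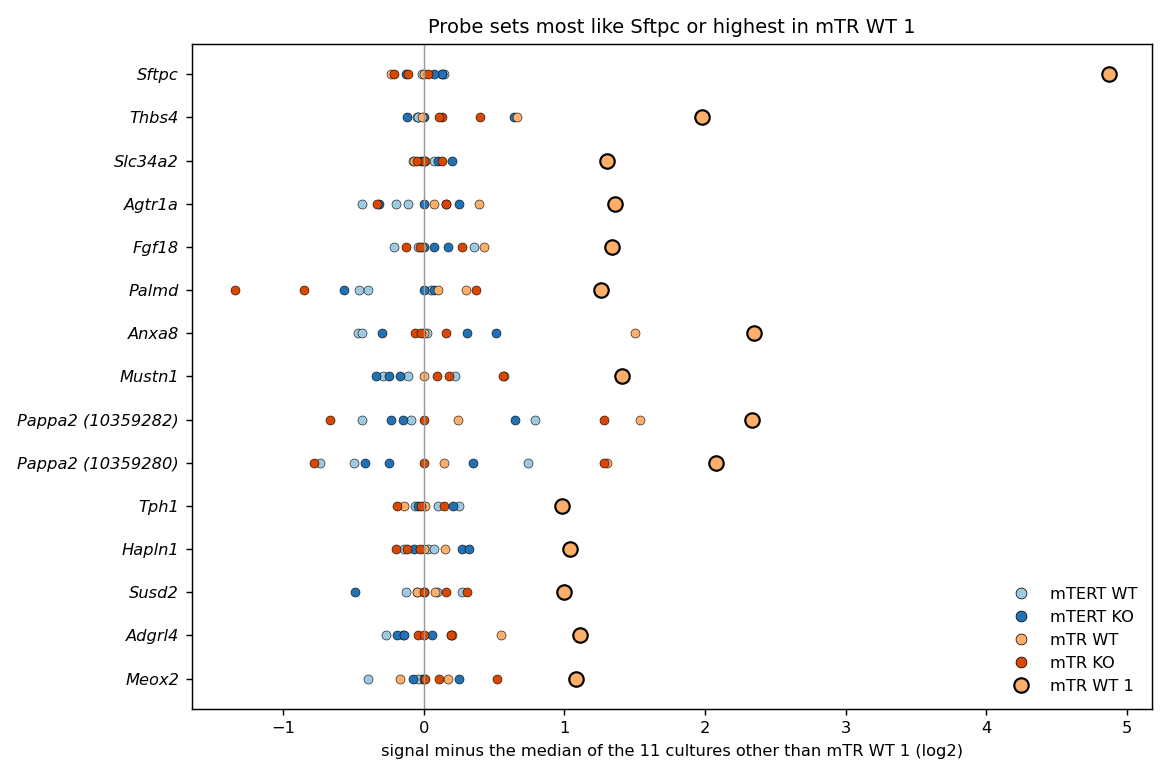
Signal of the probe sets most like Sftpc or with the largest excess in mTR WT 1, minus the median of the other 11 cultures (log2), 1 point per culture, with mTR WT 1 as the large outlined point. Sftpc lies 4.87 above the median; Anxa8 and Pappa2 also reach high values in mTR WT 3.

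The family and the neighbourhood of Sftpc were compared in the same way. Sftpc carries a BRICHOS domain, and of 8 other BRICHOS genes only Cnmd was highest in mTR WT 1, by 0.08 and below background; Itm2b, a widely expressed member, read 10.27 there against 10.34 to 10.82. Of the 8 protein-coding genes nearest to Sftpc in RefSeq gene order, 0 were highest in mTR WT 1. The nearest on either side, Bmp1 and Lgi3, read 10.14 within 10.07 to 10.58 and 4.41 within 4.11 to 4.69. Of the measured genes around it, Sftpc alone was highest in mTR WT 1.

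The knockouts were then compared with their wild types, for which 28853 probe sets were fitted together. The targeted gene was examined first. Tert read 4.99, 4.83 and 4.75 in mTERT KO against 5.72, 5.74 and 5.51 in mTERT WT, a difference of -0.79 ± 0.08 (SE; limma, adjusted p = 0.0352), and between 5.66 and 5.80 in the mTR cultures. It was the only probe set called (0.00347% of those tested). The count became 2 without mTERT KO 1, stayed at 1 without mTERT WT 3 and fell to 0 without any 1 of the other 10 cultures, and also after quantile normalization, with a replicate block in each line and in a fit of the 6 mTERT cultures alone. Terc, the telomerase RNA, was below background in all 12 cultures and gave no check of the mTR KO label.

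Of the 9 genes other than Sftpc, 0 were called in the mTERT comparison and 0 in the mTR comparison, where 0% of all probe sets were called, by limma with Benjamini-Hochberg adjustment over all probe sets; 0 of the 9 had an unadjusted p below 0.05, against 1.92% and 5.82% of all probe sets. The 2 groups overlapped for all 9 genes in both comparisons, whereas 5.97% and 11.4% of all probe sets did not overlap. A miss at this number of cultures does not show that levels were equal.

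In the mTERT comparison Lamp3 read 4.49 ± 0.05 in knockout and 4.36 ± 0.18 in wild type (SD, n = 3), a difference of 0.13 ± 0.14 (SE; limma, adjusted p = 1). Sftpd differed by -0.10 ± 0.08, Cdh1 by 0.10 ± 0.10 and Krt8 by -0.12 ± 0.22. Differences for Sftpa1, Sftpb, Nkx2-1, Scgb1a1 and Epcam ran from -0.09 to -0.0014. In the mTR comparison Scgb1a1 read 3.94 ± 0.07 in knockout and 4.06 ± 0.09 in wild type (SD, n = 3), a difference of -0.12 ± 0.07 (SE; limma, adjusted p = 0.84). Sftpb differed by -0.07 ± 0.18, Lamp3 by -0.11 ± 0.14, Epcam by -0.07 ± 0.10 and Krt8 by -0.09 ± 0.22; without mTR WT 1 these 4 changed sign, to 0.15, 0.07, 0.05 and 0.09. Sftpa1 differed by -0.08 ± 0.11, Cdh1 by -0.08 ± 0.10, Sftpd by 0.03 ± 0.08 and Nkx2-1 by 0.06 ± 0.07. All of these differences were within 2 SE of 0.

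For the difference between the knockout effects (mTR minus mTERT), 0 of the 9 genes were called, and for mTERT WT against mTR WT 0 were called, where 0.0173% of probe sets were; 0 of the 9 had an unadjusted p below 0.05 in either, against 3.34% and 6.78% of all probe sets. Of 15 alveolar type 2 genes 0 were called in either knockout comparison, with medians of -0.03 and -0.07 against 0.0011 and 0.00087 for all probe sets. The mTR median includes mTR WT 1, where 8 of the 15 were highest, and was not taken without that culture. By limma 0 of these 15 had an unadjusted p below 0.05 in the mTERT comparison and 1 in the mTR comparison. The shares of all probe sets were 1.92% and 5.82%. Of 31 pan-epithelial genes 0 were called in either, with medians of -0.05 and -0.03. By limma 0 and 3 of the 31 had an unadjusted p below 0.05, against the same shares of 1.92% and 5.82%.

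**Figure D4:**
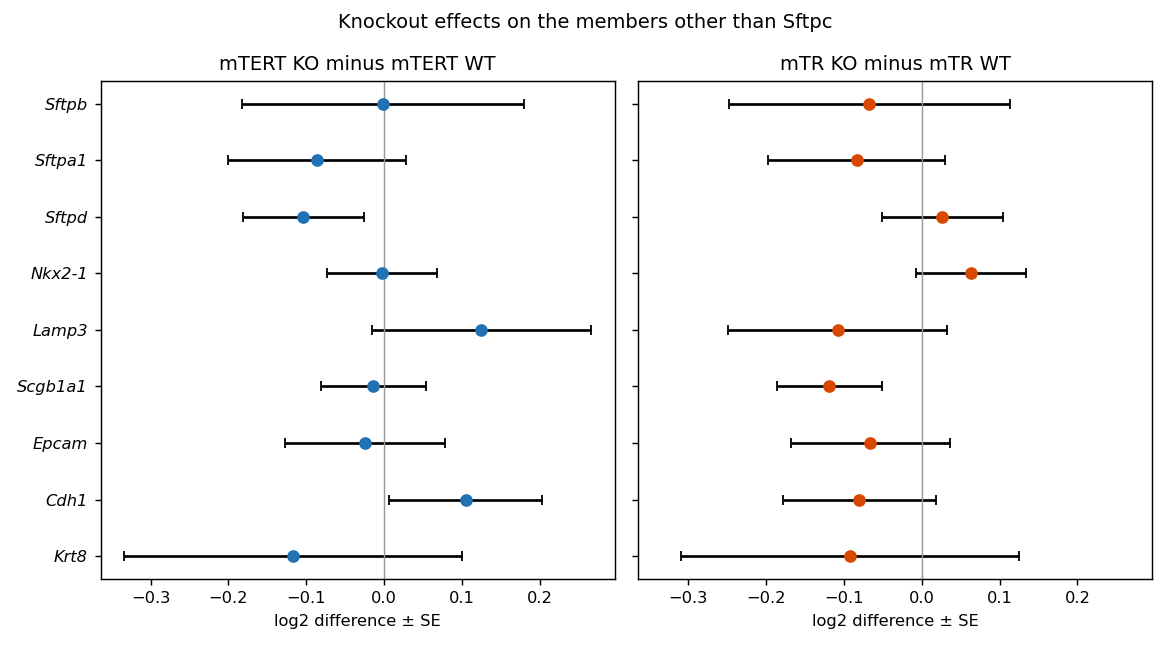
Knockout minus wild type difference (log2, with its SE as a bar) of the 9 genes other than Sftpc, for the mTERT line on the left and the mTR line on the right, 3 cultures per group. The differences lie between -0.12 and 0.13 and none passed the adjusted threshold.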

How the data were processed

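Per the labels, RNA was extracted with Trizol, cleaned with RNeasy kits, amplified and biotin labelled. The deposited table holds log2 signals per probe set, 1 column per culture; per the submitters' processing notes the tools included GCOS 1.4, Affymetrix Expression Console and PLIER, with no role stated, and how arrays were normalized to each other was not given in the sources used here. Array medians lay between 5.46 and 5.50 and correlations between 0.984 and 0.997, so values were used as deposited. Of all probe sets 1621 carried several symbols and 5443 none; these were not named. The 20 gene lists, that of the 10 genes included, were chosen with earlier results of these data known, and 221 of their 224 entries could be matched; some genes are in several lists.

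A model of 4 group means was fitted over 12 arrays with limma 3.58.1 in R 4.3.3 (8 residual and 3.14 prior degrees of freedom), with a 5% Benjamini-Hochberg threshold and no filter. P-values measure the spread between cultures. Genes were named by rule: the 10 genes, Tert and Terc, the 10 most like Sftpc, the 12 largest excesses, and per list up to 4 genes with an excess of 0.5 or more and up to 3 of the brightest, given for the lists described in detail. Many others named from the lists, such as Krt7, Krt18, Foxp2, C1qa and Mrc1, were chosen after their values were seen, as were the neighbours of Sftpc. Same-numbered mTERT cultures deviated together (correlations 0.674, 0.733 and 0.790) and the mTR cultures did not (-0.156, 0.289 and -0.377). Unless an alternative with a block is named, the values printed come from fits without pairs. The pairs entered as a block only in alternatives. The fit was tested on simulated data with known changes. No per-sample column was left unused.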

Additional observations from a re-analysis of the deposited data

How the results depend on the processing

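The Sftpc excess was 4.72 after quantile normalization or median centring, and ran from 0.01 (mTR WT 1 left out) to 4.74 when 1 culture was left out. The count of probe sets at least 1 above every other culture became 37 at a minimum of 0.5 and 1 at a minimum of 2, and 0 to 9 without 1 culture. Calls among the 9 genes (4 of 9 after the filter on dim probe sets) were 0 in each comparison under every alternative run. The mTERT count of 1 became 0 after quantile normalization, with a replicate block in each line and with the 6 cultures compared alone, 1 with the mTERT replicate block, and 0 to 2 without 1 culture; without 1 culture the mTR count was 0 to 3 and the wild type count of 5 was 0 to 11, both highest without mTR WT 2, and the wild type count was 0 after quantile normalization. The causes were not tested. The block was not run for the wild types, since pair terms would remove the spread that contrast needs, and it changed no other call. The Sftpb difference in mTERT became 0.00422 after quantile normalization. Without 1 culture the mTERT difference ran from 0.0537 to 0.228 for Lamp3 and from 0.025 to 0.23 for Cdh1. Ranges without 1 culture that crossed 0 were, in mTERT, -0.0867 to 0.168 for Sftpb, -0.0538 to 0.0499 for Nkx2-1, -0.042 to 0.00825 for Scgb1a1, -0.0859 to 0.0325 for Epcam and -0.217 to 0.0106 for Krt8, and in mTR -0.187 to 0.000483 for Sftpa1, -0.184 to 0.154 for Sftpb, -0.0223 to 0.0702 for Sftpd, -0.143 to 0.047 for Epcam, -0.224 to 0.0748 for Lamp3 and -0.326 to 0.0912 for Krt8. Of the 10 genes 6 were above background in some culture at the 95th percentile, 8 at the 90th and 4 at the 99th. The alternatives for Slc34a2, Cldn18 and the list counts were chosen after seeing the data; after quantile normalization or median centring 8 type 2 genes and 5 rather than 4 pan-epithelial genes were highest in mTR WT 1. The number of arrays limits the precision.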

Other observations

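Some markers of other tissues, and Lgr5 of the lung mesenchyme list, were above the median of the other 11 cultures in mTR WT 1. They were also high in cultures with a low Sftpc signal. These genes were chosen after their values were seen. Ttr, the thyroid hormone carrier made by liver, yolk sac and choroid plexus, read 5.80 in mTR WT 1, but 6.00 in mTERT WT 3 and 6.31 in mTERT KO 3, and between 4.59 and 4.91 in the other 9 cultures. Upk1b, a uroplakin of mesothelium and urothelium, read 6.04 in mTR WT 1, 6.75 in mTERT WT 2 and 6.23 in mTERT KO 1, and 4.48 in mTR WT 2. Nkain4 was highest in mTR WT 1 at 7.84, and read 7.55 in mTR WT 3 and in mTR KO 3, with 6.19 in the other 2 mTR KO cultures. Lgr5 read 7.64 in mTR WT 1, 7.74 in mTERT KO 1 and 8.09 in mTR KO 1, and 4.72 in mTERT WT 3.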
